A study of Sus scrofa with 14 samples.

Results

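The genes described here encode complement components and complement regulators. All non-control probes whose RefSeq accession is a transcript of pig C1QA, C3, CFB, C5, C8G, CD46, CD59, CLU or CFD were taken, whatever their values, which gave 13 of the 43603 non-control probes on the array and 8 of the 2389 genes named this way. C3 was read by 5 probes, C5 by 2 and each of the other 6 genes by 1. No probe matched CFD, the adipocyte protease adipsin, which was not analysed here. The tissue was meniscus, a fibrocartilage of the knee, from male Wuzhishan pigs aged 6 to 7 months per the labels. The osteoarthritis (OA) group held 7 animals sampled 24 weeks after anterior cruciate ligament surgery, and the sham group 7 animals sampled 24 weeks after a sham operation. Each animal's total RNA was labelled with 1 dye and read on its own array. Whole tissue was used, so fewer cells of a type and less RNA per cell cannot be told apart, and the labels do not say which part of the meniscus was sampled or how severe the joint damage was.

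Complement is a cascade of plasma and tissue proteins that tags cells and debris for removal, attracts leukocytes and punctures membranes. The classical pathway starts when C1q binds antibody or other surfaces, the lectin pathway when lectins bind sugars, and the alternative pathway amplifies C3 cleavage through factor B. All of them converge on C3, then on C5 and the membrane attack complex, while membrane proteins such as CD46 and CD59 and the fluid-phase chaperone clusterin protect host cells. In joints, complement proteins are made locally by synovial cells, chondrocytes and macrophages as well as arriving from blood.

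None of the 13 probes differed between OA and sham arrays past the threshold of a Benjamini-Hochberg adjusted p of 0.05, taken over all tested probes. All 13 were bright enough to be tested. Of the 38818 tested probes on the array 3.73% passed, 2.89% higher and 0.848% lower in OA. An unadjusted p under 0.05 was found for 1 of the 13 probes, that of CD59, against 19.6% of all tested probes. The sham and OA values overlapped for each of the 13. Of all tested probes 1.73% had groups that did not overlap, 1.58% with OA higher and 0.152% with OA lower. At that share, a lack of such probes among 13 does not set them apart from the array. The log2 changes of the 13 probes, 7 positive and 6 negative, had a median of 0.00, and the median over all tested probes was -0.05. The spread among animals within a group was wide for several of these genes, against a median standard deviation of 0.454 (log2) over all tested probes. The pooled within-group standard deviation of CFB exceeded that of 99.9% of tested probes, that of CLU 98.6%, and those of C3 probes 1 to 4 between 98.0% and 99.0%. The share was 93.3% for C1QA and 93.8% for the dim CD46 probe. It was only 55.0% for C3 probe 5, and 43.0% to 62.2% for the probes of CD59, C5 and C8G. These shares are a description of where the genes lie in the array, and the number of arrays limits their precision.

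**Figure D1:**
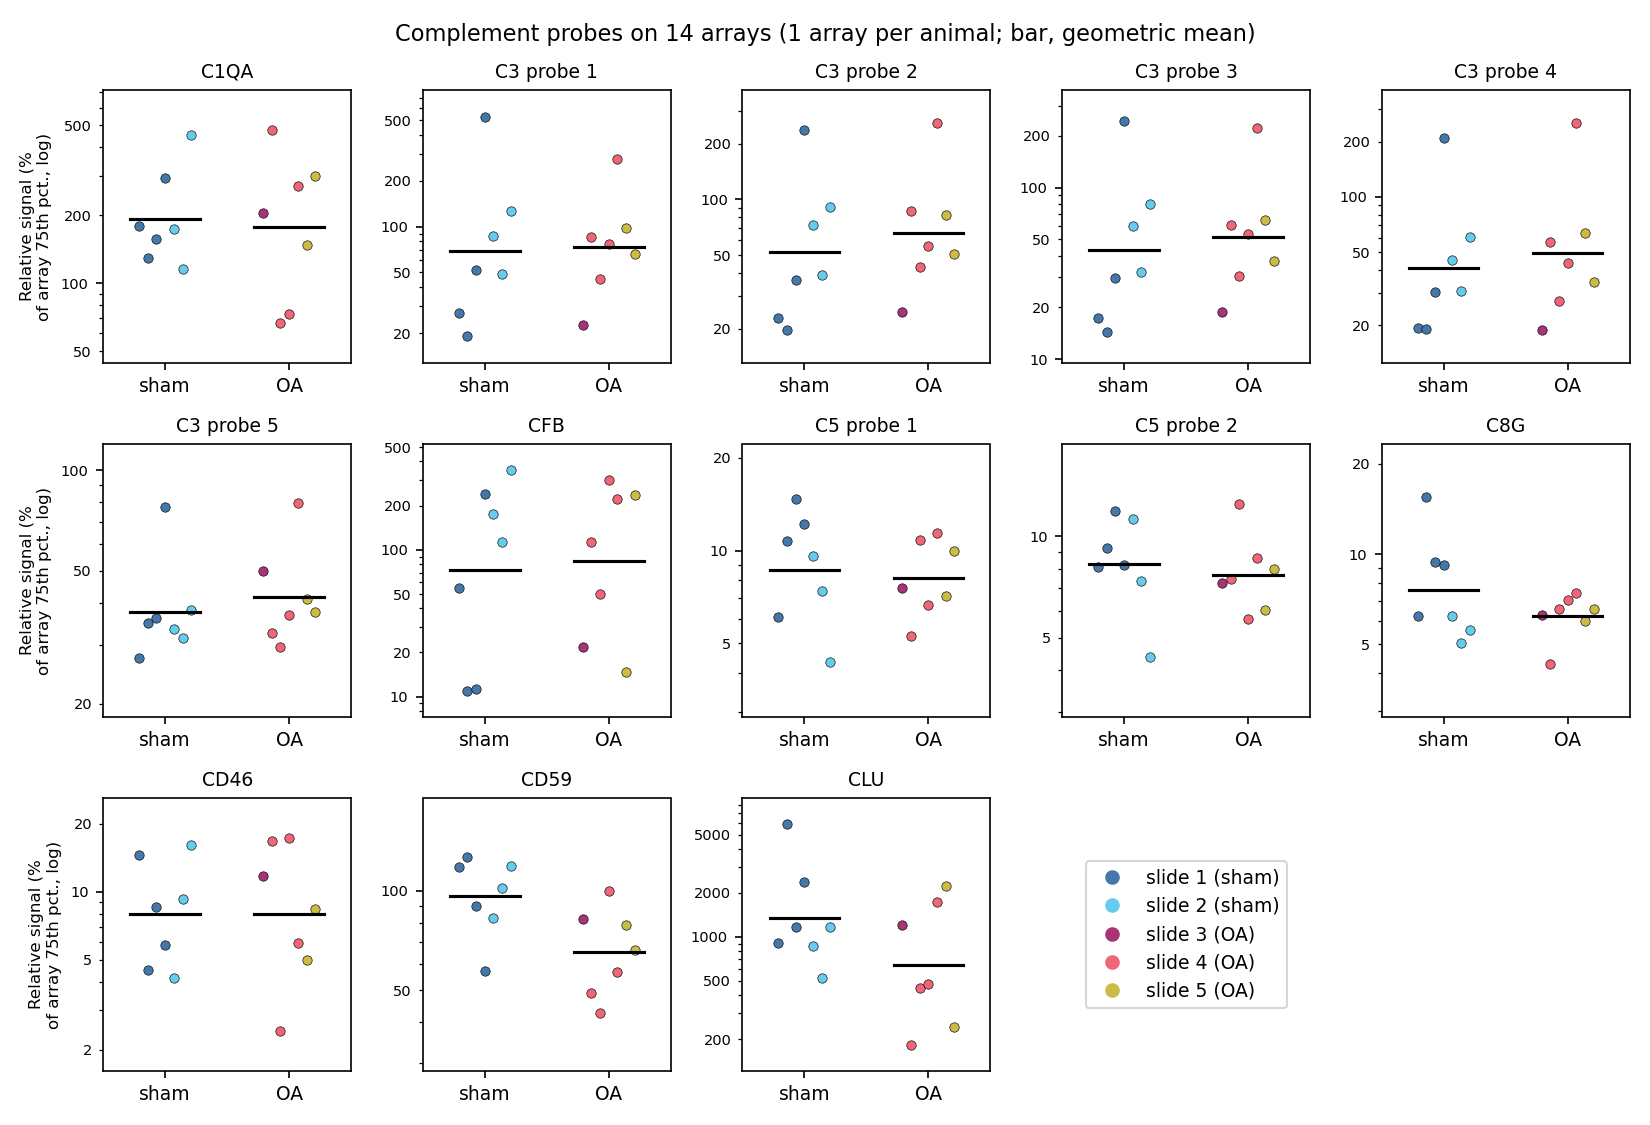
Relative signal of each of the 13 complement probes on the 14 arrays, in percent of the array's 75th percentile, on log axes that differ between panels. Each point is 1 animal, coloured by slide, and bars are geometric means of 7 animals. Sham and OA points overlap in every panel, and CFB, CLU and C3 probes 1 to 4 spread over more than a 10-fold range.

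The arrays differed in brightness between the groups, and this touches every comparison below. The raw 75th percentile of the probe signals ran from 418 to 622 on sham arrays and from 156 to 492 on OA arrays (exact permutation test, two-sided, p = 0.0035, adjusted over 2 measures p = 0.0035). Probes well above background made up 89.7% to 95.2% of all probes on sham arrays and 67.9% to 89.3% on OA arrays (exact permutation p = 0.00058, adjusted p = 0.0012). Arrays with the same scan time in the file headers are called a slide here. No slide held both groups, since slides 1 and 2 carried sham arrays, slide 3 carried OA 1, slide 4 OA 2 to OA 5 and slide 5 OA 6 and OA 7, so slide and group cannot be told apart. By the file headers all sham arrays were scanned on day 1, OA 1 on day 2 and OA 2 to OA 7 on day 3. Scan day and group cannot be told apart either. Of the genes listed for chondrocytes and fibrochondrocyte matrix, aggrecan, decorin and SOX9 were measured, each well above background on all 14 arrays. COL2A1, COMP, PRG4, COL1A1 and COL1A2 had no matched probe and were not analysed here. Of 12 macrophage markers 6 were measured, all well above background on all 14 arrays, and their summed relative signal ran from 1450% to 7119% in sham and from 3510% to 6408% in OA. Of 7 T cell markers all 7 were measured and 3 were well above background on every array, with sums from 64.6% to 473% in sham and from 51.1% to 282% in OA. All these sums add different probes, so the brightest weigh most and a sum does not measure the content of a cell type. CD163 alone reached 4383% in sham and 4401% in OA among macrophage markers. CD8A alone reached 393% in sham and 220% in OA among T cell markers. Of 6 neutrophil markers 3 were measured, with sums from 21.6% to 40.2% in sham and from 32.4% to 190% in OA. All 12 adipocyte markers were measured, 9 of them well above background on every array, with sums from 1174% to 2584% in sham and from 1233% to 6842% in OA. Of 7 endothelial markers 3 were measured, with sums from 856% to 4127% in sham and from 1562% to 4256% in OA, and of 9 skeletal muscle markers 7, with sums from 80.0% to 149% and from 92.1% to 153%. Each marker was read by its brightest probe. Of all these markers only the adipocyte hormone gene LEP and the muscle gene TNNI1 passed, both higher in OA. LEP had a log2 change of 0.74 ± 0.16 (limma adjusted p = 0.021), with all 7 OA arrays above every sham array. TNNI1 had 0.71 ± 0.18 (limma adjusted p = 0.041) on a dim probe, with a geometric mean signal of 32.8. By brightest probe, 67 of the 2258 tested named genes passed as higher in OA and 6 as lower. Alternative fits of LEP and TNNI1 are not given here. The part of these cell types in the complement values was not tested.

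C1QA encodes the A chain of C1q, the recognition subunit of the classical pathway, which is made mainly by macrophages. Its probe (A_72_P165561, transcript NM_001003924) was bright, with a geometric mean signal of 680 over the 14 arrays against a median of 86.6 for all tested probes. Values are given from here on as relative signal, the percentage of the array's own 75th percentile, and compare a probe only with itself across animals. C1QA had a relative signal of 116% at the lowest, 174% at the median and 451% at the highest of the 7 sham arrays. On the 7 OA arrays it was 66.8% at the lowest, 205% at the median and 476% at the highest. The highest value was on OA 2 and the lowest 2 on OA 3 and OA 4, arrays of the same slide, and the sham range lay within the OA range. The log2 change, OA minus sham, was -0.11 ± 0.42 (SE, n = 7 per group; limma adjusted p = 0.91), with a 95% interval from -1.01 to 0.79. The sign turned to 0.11 without slide 4, and no call depended on it.

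C3 is the protein on which the complement pathways converge, and its cleavage yields the fragments that coat surfaces. The 5 C3 probes were all assigned to transcript NM_214009 and are numbered here from the brightest (A_72_P165601, A_72_P745528, A_72_P737664, A_72_P742730 and A_72_P443993). Probe 1 read 19.2% at the lowest, 51.7% at the median and 522% at the highest on sham arrays. On OA arrays it read 22.7% at the lowest, 76.8% at the median and 278% at the highest. The highest sham animal thus stood 27.3-fold above the lowest, and the highest OA animal 12.2-fold above the lowest. The same 2 animals, sham 4 and OA 5, gave the highest 2 values on all 5 probes, and sham 2 or OA 1 the lowest on probes 1 to 4.

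The group difference of C3 was small beside that spread. The log2 changes of probes 1 to 5 were 0.10 ± 0.64, 0.35 ± 0.55, 0.26 ± 0.60, 0.26 ± 0.56 and 0.14 ± 0.25 (SE, n = 7 per group; limma adjusted p from 0.76 to 0.95). The 95% interval of probe 1 ran from -1.24 to 1.45, so these 14 animals do not bound a change of C3 closely. Probe 5 had the narrowest interval, from -0.38 to 0.67, but it also followed the other probes least. Across the 14 arrays probes 1 to 4 correlated with each other at a Pearson r of 0.96 to 0.99, and with probe 5 at 0.71 to 0.79. The highest OA array stood 2.68-fold above the lowest on probe 5, against 10.6-fold to 13.5-fold on probes 1 to 4. Without slide 4, probes 1 to 4 turned negative, at -0.39, -0.15, -0.27 and -0.25, and none passed. OA 5, the OA array with the highest C3, lies on that slide. Without OA 5 alone, probes 1 to 4 stood at -0.22, 0.02, -0.09 and -0.14. The cause of the turn was not tested.

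CFB encodes factor B, the protease precursor that binds C3b to form the C3 convertase of the alternative pathway. Its probe (A_72_P302604, NM_001101824) was the most variable of the 13. It read 10.96% at the lowest, 114% at the median and 348% at the highest on sham arrays. On OA arrays it read 14.8% at the lowest, 113% at the median and 297% at the highest. Sham 2, sham 3 (11.3%) and OA 6 gave the lowest 3 values, while sham 7, OA 4 and sham 4 gave the highest 3 values, so low and high animals occurred in both groups. The highest value stood 31.7-fold above the lowest in sham and 20.1-fold in OA. The log2 change was 0.19 ± 0.88 (SE, n = 7 per group; limma adjusted p = 0.93), with a 95% interval from -1.66 to 2.04. It was -0.79 without slide 4. Within OA the mean log2 relative signal was 0.48 on the 4 arrays of slide 4 and -1.24 on the 3 others.

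**Figure D2:**
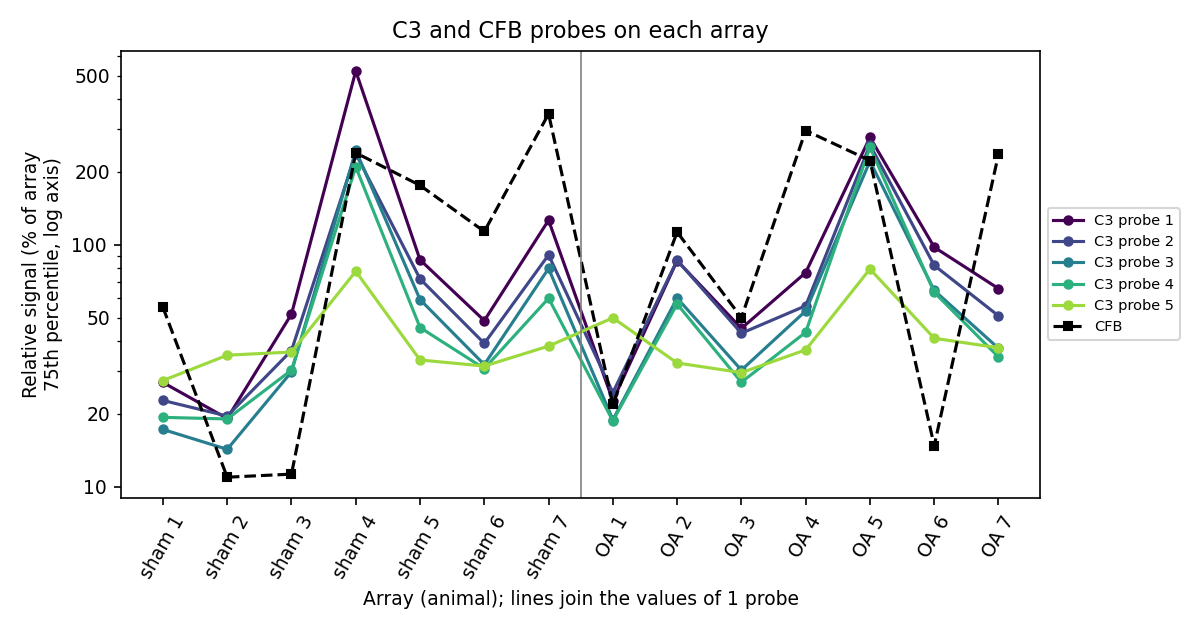
Relative signal of the 5 C3 probes and the CFB probe on each array, in percent of the array's 75th percentile on a log axis. Lines join the values of 1 probe for reading only, and the vertical line separates sham from OA. C3 probes 1 to 4 share peaks at sham 4 and OA 5, probe 5 varies less, and CFB is high on sham 7, OA 4 and OA 7 as well.

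C5 is cleaved to release the leukocyte attractant C5a and to start assembly of the membrane attack complex, and C8G is the gamma chain of C8, a subunit of that complex. Both gave dim signals, with geometric means of 30.8 and 29.3 for the C5 probes (A_72_P686307 and A_72_P178096, NM_001001646) and 25.3 for C8G (A_72_P077791, NM_001097452). C5 probe 1 read 4.33% at the lowest, 9.61% at the median and 14.7% at the highest on sham arrays. On OA arrays it read 5.29% at the lowest, 7.56% at the median and 11.4% at the highest. All OA values lay inside the sham range, with sham 3 highest and sham 7 lowest. Its log2 change was -0.09 ± 0.27 (SE, n = 7 per group; limma adjusted p = 0.89) and that of probe 2 was -0.10 ± 0.23 (adjusted p = 0.85). The 95% intervals, from -0.65 to 0.47 and from -0.59 to 0.38, were among the 5 narrowest of the 13 probes, with those of CD59, C8G and C3 probe 5.

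C8G read 5.06% at the lowest, 6.24% at the median and 15.4% at the highest on sham arrays. On OA arrays it read 4.31% at the lowest, 6.55% at the median and 7.44% at the highest. All 7 OA arrays lay below the sham mean, although the OA median was above the sham median, because sham 2, sham 3 and sham 4 (15.4%, 9.44% and 9.20%) lifted the mean. The log2 change was -0.29 ± 0.23 (SE, n = 7 per group; limma adjusted p = 0.53), with a 95% interval from -0.78 to 0.21. C8G was not well above background on OA 2, its lowest array. With a different background correction (normexp on the median spot signal), 4 of the 13 probes passed as higher in OA, those of C5, C8G and CD46, which are the 4 dimmest, beside 47.4% of all tested probes. Their log2 changes were then 0.54 and 0.54 for C5, 0.48 for C8G and 0.61 for CD46 (limma adjusted p from 0.0077 to 0.028), and the median over all tested probes was 0.34.

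CD46 is a membrane cofactor for the inactivation of C3b and C4b. Its probe (A_72_P441544, NM_213888) was dim, with a geometric mean of 29.3, and it was not well above background on OA 3. It read 4.17% at the lowest, 8.57% at the median and 16.1% at the highest on sham arrays, and 2.42%, 8.37% and 17.2% on OA arrays. OA 4 and OA 2 were the highest and OA 3 the lowest, so the OA range enclosed the sham range. The log2 change was 0.00 ± 0.43 (SE, n = 7 per group; limma adjusted p = 1.00), with a 95% interval from -0.91 to 0.92.

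CD59 is a membrane-anchored inhibitor that blocks the last step of membrane attack complex assembly. Of the 13 probes it had the smallest p. Its probe (A_72_P146701, NM_214170) read 57.0% at the lowest, 102% at the median and 127% at the highest on sham arrays. On OA arrays it read 42.7% at the lowest, 66.1% at the median and 99.8% at the highest. Of the 7 OA arrays 6 lay below the sham mean and 3 (OA 2, OA 3 and OA 5, all on slide 4) below every sham array, while OA 4 of the same slide was the highest of its group. The log2 change was -0.56 ± 0.23 (SE, n = 7 per group), a ratio of OA to sham of 0.678, with a 95% interval from -1.04 to -0.08. It did not pass over all tested probes (limma unadjusted p = 0.024, adjusted p = 0.18). The change was -0.35 without slide 4 and -0.52 with the slide as a random block (adjusted p = 0.65 and 0.63).

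CLU encodes clusterin, a secreted chaperone that binds the terminal complement complex and is also produced by cells under stress. Its probe (A_72_P185296, NM_213971) was bright, with a geometric mean of 3409. It read 526% at the lowest, 1174% at the median and 5891% at the highest on sham arrays. On OA arrays it read 182% at the lowest, 473% at the median and 2216% at the highest. Sham 2 and sham 4 were the highest, and 4 of 7 OA arrays, OA 2, OA 3, OA 4 and OA 7, lay below every sham array. The other 3 OA arrays were at 1210%, 1735% and 2216%, so the OA values were split between the sham range and levels below it. The log2 change was -1.07 ± 0.60 (SE, n = 7 per group), a ratio of OA to sham of 0.475 (limma adjusted p = 0.34), with a 95% interval from -2.34 to 0.19. Without sham 2 it was -0.72 (adjusted p = 0.55) and without slide 4 -0.63 (adjusted p = 0.82).

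**Figure D3:**
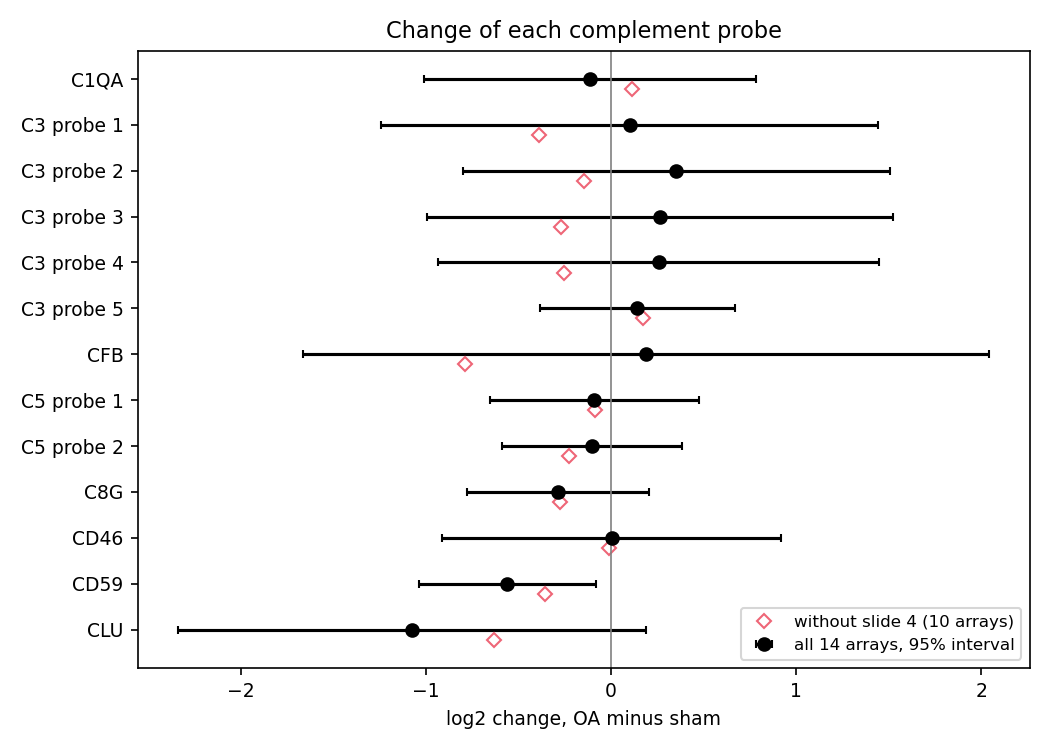
Log2 change, OA minus sham, of each complement probe with its 95% interval from the fit over all 14 arrays (black), and the value without the 4 arrays of slide 4 (open diamonds). The interval of CD59 alone lies below 0, and the diamonds of C1QA, C3 probes 1 to 4, CFB and CD46 lie on the other side of 0 from the full value.

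The member genes were next compared with each other across the 14 animals, taking the brightest probe of each gene, which gave 28 pairs. No pair passed for Pearson's r after Benjamini-Hochberg adjustment over the 28 (permutation tests with 100000 resamples, two-sided). C3 and CFB, which form the alternative pathway convertase together, had r = 0.62 (permutation p = 0.017, adjusted p = 0.12) and Spearman's rho = 0.64 (p = 0.017, adjusted p = 0.16). Their r was 0.59 without the 2 arrays farthest from the C3 median, 0.71 within sham, 0.47 within OA and 0.60 over the 10 arrays outside slide 4. On C3 probes 2 to 4 r with CFB was 0.53 to 0.62, and on C3 probe 5 it was 0.24 (rho = 0.29). C5 and C8G had r = 0.66 (permutation p = 0.0081, adjusted p = 0.081) and rho = 0.77 (p = 0.0017, adjusted p = 0.046), the only pair past the threshold by rank. Their r was 0.64 without the 2 farthest arrays, 0.66 within sham, 0.74 within OA and 0.65 outside slide 4. Both probes are dim, and a shared share of background in their signals was not tested. With C5 probe 2 in place of probe 1, r with C8G was 0.36 and rho 0.51. The call by rank was thus made on C5 probe 1 only, over the arrays of all slides together, and no test was made within slides.

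C5 and CD46 ran opposite to each other, with r = -0.67 (permutation p = 0.0087, adjusted p = 0.081) and rho = -0.65 (p = 0.015, adjusted p = 0.16). Their r was -0.76 without the 2 farthest arrays, -0.72 within sham, -0.72 within OA and -0.60 outside slide 4. With C5 probe 2, r with CD46 was -0.66 and rho -0.68. C8G and CLU had r = 0.72 (permutation p = 0.0039, adjusted p = 0.081) but rho = 0.44 (p = 0.12, adjusted p = 0.57), and r was 0.33 without the 2 arrays farthest from the C8G median, so the pooled value rests on those. Their r was 0.92 within sham, 0.48 within OA and 0.69 outside slide 4. C1QA did not follow C3 closely (r = 0.43, permutation p = 0.13, adjusted p = 0.41; rho = 0.46, p = 0.1, adjusted p = 0.57). With values centred on their slide, over the 13 arrays of the 4 slides with more than 1 array, r was 0.60 for C3 and CFB, 0.55 for C5 and C8G, -0.73 for C5 and CD46, 0.64 for C8G and CLU and 0.51 for C1QA and C3, given as descriptions with no test.

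**Figure D4:**
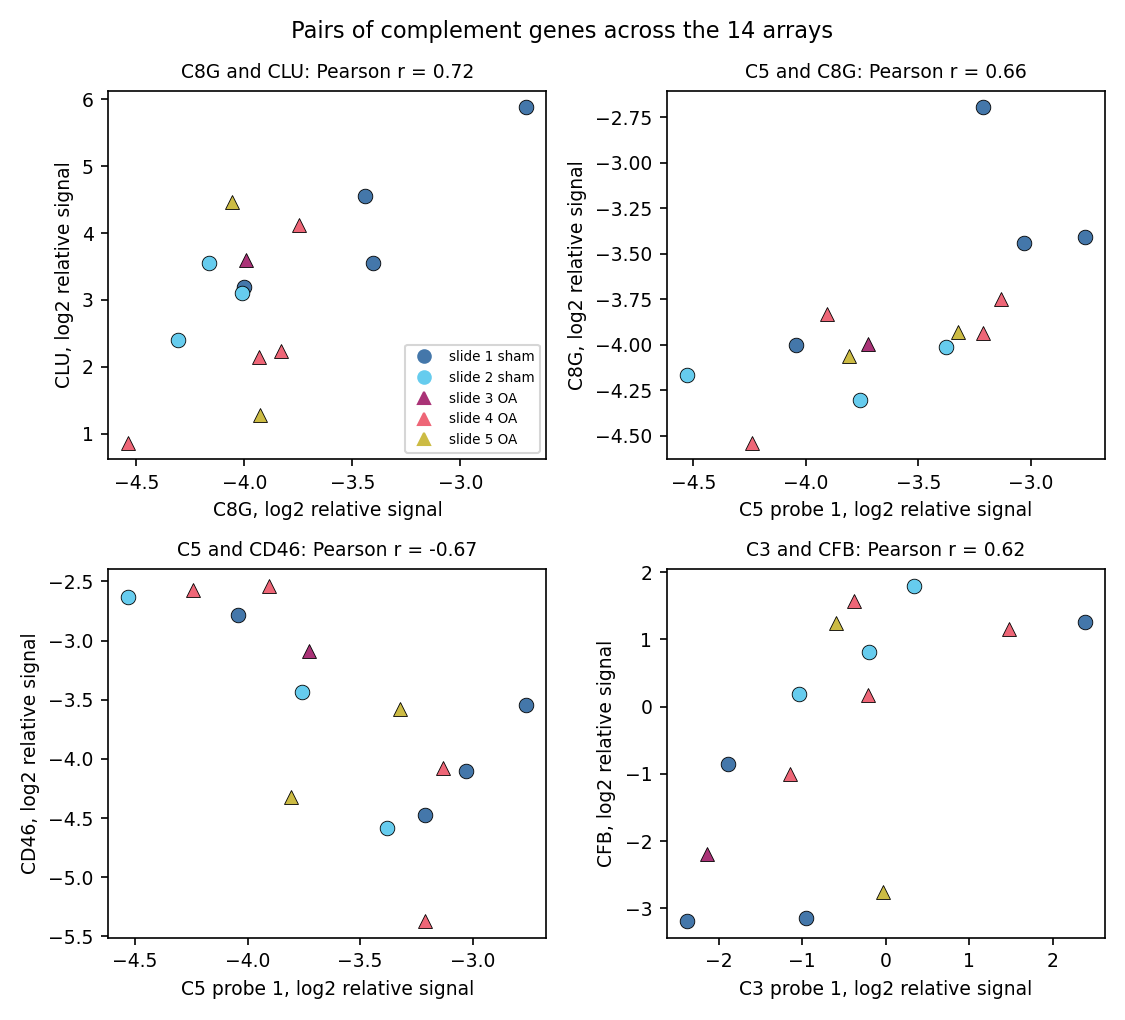
The 4 pairs of member genes with the smallest permutation p, each point 1 animal (circles sham, triangles OA, coloured by slide), with log2 relative signal on both axes. C8G and CLU rest on a few outlying points, C5 and CD46 slope downwards, and C3 and CFB slope upwards, with OA 6 and sham 3 low in CFB.

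Among the 2250 other named genes with a tested probe, the gene whose group-centred values followed each member most closely over the 14 arrays was noted as a description, with no test, since each is the best of many. C1QA was followed most closely by C4A, a complement component itself (r = 0.88, rho = 0.92). C3 was followed by CYP3A29 (r = 0.87), CFB by PTH (r = 0.85), C5 by FGF9 (r = 0.81) and C8G by NANOG (r = 0.90). CD46 was followed by HMOX1 (r = 0.89), CD59 by SLIRP (r = 0.86) and CLU by DIO1 (r = 0.93). These values share the arrays, their slides and their brightness.

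Other genes of the cascade were read from a list of 45 complement genes, of which 20 carried a matched probe and 17 a tested one. Over their brightest probes 0 of the 17 passed in limma (0 with an unadjusted p under 0.05), 11 were positive and 6 negative, and the median log2 change was 0.05 against 0.00 over all 2258 tested named genes. Of those 2258 genes, 67 passed as higher and 6 as lower, and 346 had an unadjusted limma p under 0.05. Of them 1141 were positive and 1117 negative. Counted by probe, 1 of 41 tested passed, or 2.44%, beside the 3.73% of all tested probes.

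The probe that passed belongs to MASP1, a serine protease of the lectin pathway. MASP1 probe 2 read 7.94% at the lowest, 11.6% at the median and 14.8% at the highest on sham arrays, and 12.2%, 21.6% and 35.1% on OA arrays. All 7 OA arrays lay above the sham mean, and 6 of them above every sham array, so the groups overlapped by 1 OA array. Its log2 change was 0.88 ± 0.23 (SE, n = 7 per group; limma adjusted p = 0.042). The brighter MASP1 probe stood at -0.05 ± 0.17 (limma adjusted p = 0.90), so the probes of MASP1 disagreed. With the slide as a random block probe 2 did not pass (0.96, adjusted p = 0.18), and of 14 fits with a single array removed it passed only in those without OA 1 (adjusted p = 0.0499) and without OA 4 (adjusted p = 0.022).

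No other probe of the early classical and lectin components passed. C1S, the protease that cleaves C4 and C2, stood at 0.12 ± 0.32 and C2 at 0.06 ± 0.35 (SE; log2, n = 7 per group; limma adjusted p = 0.88 and 0.95). C4A stood at 0.05 ± 0.39 on its brightest probe, 0.41 ± 0.38 and 0.17 ± 0.18 on the others. FCN2, a lectin pathway ficolin, stood at 0.61 ± 0.79 (adjusted p = 0.71), and its highest OA array read 1128% against 60.8% at the OA median. FCN1, another ficolin, stood at -0.63 ± 0.53 (adjusted p = 0.54) and was well above background on 4 of 7 OA arrays. MASP2, a protease that cleaves C4 and C2, stood at -0.22 ± 0.23 on its brighter probe. Its dimmer probe stood at -0.88 ± 0.39 (limma unadjusted p = 0.037, adjusted p = 0.22). That probe was well above background on all 7 sham arrays but on 2 of 7 OA arrays. It qualified for the test through sham alone, so this p is not evidence for a lower level in OA. MBL1 and MBL2, the mannose-binding lectins, were not well above background on any of the 14 arrays.

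Among terminal components, C6 stood at 0.42 ± 0.35, C7 at 0.04 ± 0.27 and C9 at -0.10 ± 0.32 on their brightest probes (SE, log2, limma adjusted p from 0.54 to 0.95). The dimmer C6 probes stood at 0.19 ± 0.18 and -0.16 ± 0.35, and the dimmer C9 probe at 0.29 ± 0.19. C8B, the beta chain of C8, stood at -0.42 ± 0.24 (adjusted p = 0.35), with a signal well above background on 1 OA array of 7. C8A was not well above background on any array.

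Among regulators, C4BPA, a chain of the C4b-binding protein, stood at 0.47 ± 0.40 on its brightest probe (adjusted p = 0.55), with 3 of its 5 probes positive. SERPING1, the C1 inhibitor, stood at -0.04 ± 0.25, and CD55, which speeds the decay of convertases, at 0.04 ± 0.33. VTN, vitronectin, an inhibitor of the membrane attack complex, stood at 0.19 ± 0.22 on its brightest probe, with 2 of 6 probes positive. THBD, thrombomodulin, stood at 0.44 ± 0.32 on its brightest probe and ITGB2, the beta chain of complement receptor CR3, at 0.35 ± 0.35 (adjusted p = 0.48 and 0.62). The other THBD probes stood at 0.11 ± 0.18 and 0.01 ± 0.22.

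**Figure D5:**
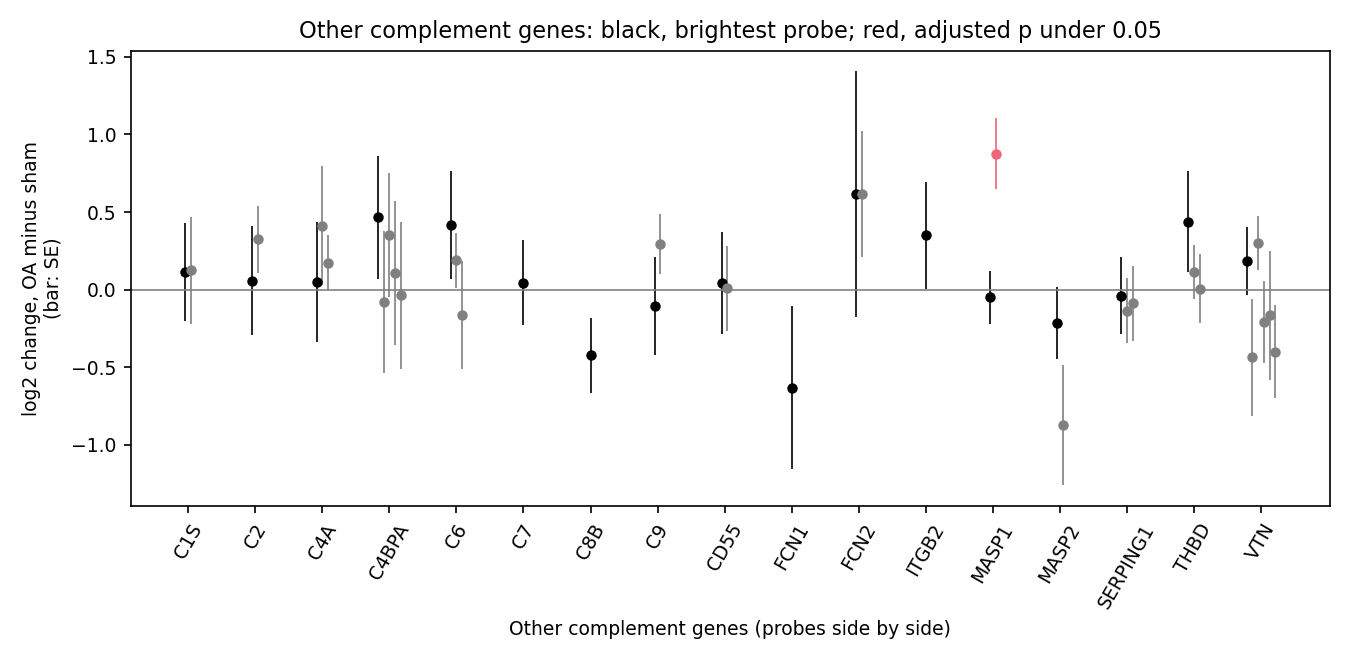
Log2 change, OA minus sham, with its SE for the 41 tested probes of 17 other complement genes, probes of a gene side by side. Black marks the brightest probe of each gene, grey the others and red the probe of MASP1 with an adjusted p under 0.05. The MASP1 probes stand apart from each other, and the FCN2 probe with the highest signal has the widest error.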

How the data were processed

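The deposited intensity values came from Agilent Feature Extraction 11.0.1.1, per the file headers, with the background subtracted and spatial trends taken out array by array. The authors' deposited log2 table served as an alternative; it followed the scanner signal (Spearman's rho of 0.994 or more) with a median of 5.99 on each array, and its making is not stated in the labels. Each processed signal was divided by its array's 75th percentile and taken to log2; 82 marked spots were set missing and spots of a probe were averaged. A probe was tested if at least 7 of 14 arrays had it well above background (38818 probes), with limma 3.58.1 in R 4.3.3, two-sided, Benjamini-Hochberg adjusted, at a threshold of 0.05. The code was tested on simulated data. Of 5779 probes with a RefSeq accession, 5461 matched the Sscrofa11.1 gene table; coordinates are left out because the sources used here name no build for the array. Arrays sharing a scan time in the headers were taken as a slide. The normexp alternative used median spot and background signals with an offset of 50, since the files hold no mean signal. No 2 arrays correlated above 0.988, so none was a copy. The series description gives separate animals, and p-values of the fit set the group difference against the spread between animals within groups. That difference cannot be separated from slide and scan day. The number of arrays limits the precision. The genes named are every member, every listed other complement gene with a tested probe (1 gene is not reported here and is in no count of that list), and for each member the gene most like it; members and lists were chosen with earlier results of these data known. Alternatives were other scalings, background corrections, filters, blocks and left-out arrays or slides.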

Additional observations from a re-analysis of the deposited data

Results flagged for a closer look

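Each group of 7 arrays was examined for a value far from the rest of its group, 26 groups in all for the 13 probes, and chance alone marks about 1 in 20 of such groups. Of them 2 stood out. For C3 probe 5, sham 4 read 77.7% and the next sham array 38.1%, a gap of 0.685 of the sham range on the log2 scale. Sham 4 was also the highest or second highest array on the other 4 C3 probes, which did not stand out by this measure. For C8G, OA 2 read 4.31% and the next OA array 6.00%, a gap of 0.607 of the OA range. On OA 2 the C8G probe was not well above background.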

How the results depend on the processing

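The count of member probes past the threshold was 0 under every alternative except normexp, where it was 4 (C5 probes 1 and 2 at 0.54 and 0.54, C8G at 0.48, CD46 at 0.61; the median of all tested probes moved to 0.34). CD59 and CLU kept their sign in all 28 alternatives, at -0.69 to -0.35 and -1.37 to -0.63, and neither passed. Over all tested probes 1449 passed, against 2242 with quantile normalization, 18413 with normexp, 2551 without a filter, 2256 in the authors' table, 18 with a random block for slide and 148 with one for scan day, 236 without slide 4, 195 without slides 3 and 4, 2555 without slide 5, 4 with array brightness as a covariate, and 730 (without sham 1) to 2710 (without OA 1) with an array left out. With the replicate number as a block 335 passed and no member did. Deviations of arrays with the same number correlated at -0.19 to 0.27, 2 of 7 over 0.1. A pairing by number was not seen in these values, which cannot exclude a weak one. Signs turned without slide 4 for C1QA (0.11), C3 probes 1 to 4 (-0.39, -0.15, -0.27, -0.25), CFB (-0.79), CD46 (-0.0097) and MASP1 probe 1 (0.23), and without slides 3 and 4 for C1QA (0.12), CFB (-0.31), CD46 (-0.30) and MASP1 probe 1 (0.17). They turned with the slide block for C3 probe 1 (-0.040), CFB (-0.094) and MASP1 probe 1 (0.011), with brightness for C1QA (0.52), C5 probe 1 (0.036), CD46 (-0.35) and MASP1 probe 1 (0.10), with normexp for C5 probes 1 and 2, C8G (values above) and MASP1 probe 1 (0.36), and in the authors' table for CD46 (-0.028). With an array left out, ranges crossed 0 for C1QA (-0.35 to 0.12), C3 probe 1 (-0.22 to 0.59), probe 3 (-0.085 to 0.68), probe 4 (-0.14 to 0.65) and probe 5 (-0.013 to 0.32), CFB (-0.27 to 0.61), C5 probe 1 (-0.26 to 0.038), CD46 (-0.18 to 0.29) and MASP1 probe 1 (-0.12 to 0.026). MASP1 probe 2 passed in 10 of 28, at 0.72 to 1.31. The cause of these shifts was not tested. C8G and CD46 had no fit with the filter on all 14 arrays. Signals near background limit C5, C8G and CD46. MASP1 alternatives and the correlations centred on slide were added after seeing the data.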
